A study of Homo sapiens with 2 samples.

Results

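The crosslink sites of hnRNPM on chromosome 19 were the 824 sites, of 54373 in the deposited list, whose chromosome was 19 (1.52% of the list). Both libraries of the series were made from wild-type HMLE cells given DMSO, labelled as biological replicates 1 and 2, and they formed 1 group. HMLE cells are immortalised epithelial cells of the human breast, kept as an established line, so all values come from 1 line. Ultraviolet light crosslinked RNA to protein and an antibody against hnRNPM was used for precipitation (iCLIP, in which reverse transcription tends to stop at the crosslinked base and pile-ups of stops mark binding positions). The list named no library, so the spread between the replicates, the depth of each and a test between samples could not be had, and chromosome 19 was set beside each of the other 21 autosomes as a description.

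hnRNPM is a nuclear RNA-binding protein that contacts pre-mRNA, much of it in introns, and takes part in the choice of splice sites. Chromosome 19 is known for its density of genes and for long tandem clusters of zinc finger genes, many of which encode KRAB repressors that silence transposable elements. Introns are short on much of this chromosome. In the GRCh38 annotation used for totals only, chromosome 19 had 1472 protein-coding genes, or 25.1 per Mb, and chromosome 17 came next with 14.3. The median coding gene of chromosome 19 was 15.8 kb long, the shortest median of the 22 autosomes, and 2.38% of its genes exceeded 100 kb, against 9.27% to 32.7% on the others. Genes with zinc finger names made up 264 of its coding genes (17.9%), against at most 4.09% on any other autosome. Sites were not assigned to genes and no sequence is shown, because no GRCh37 annotation or genome was used here.

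Chromosome 19 held many tag clusters but few sites. Tag clusters, the groups of overlapping iCLIP tags within which the authors' sites lie, carry numbers in the site names, and these numbers rose along each strand of each chromosome with 0 of 54327 neighbouring pairs out of order. They were therefore read as counts of tag clusters up to the last site of a strand, which the file does not state. On this reading chromosome 19 reached 108820 cluster numbers, or 1843 per Mb, more than 19 of the other 21 autosomes (range 1119 to 2142). It had 14.0 sites per Mb, fewer than 19 of the others. The range of the others was from 12.9 on chromosome 21, which had 51.0% of its 1-Mb bins empty, to 23.1 on chromosome 17. Chromosome 19 had only 8 empty bins of 60 (13.33%).

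The shortfall of sites appeared at both steps that the numbers allow to be followed. The running numbers of the site names, which also rose along each strand without exception, were read as candidate sites before the authors' filter. Chromosome 19 had 35.6 running numbers per 1000 cluster numbers, the lowest of the 22 autosomes, and the others lay between 40.8 on chromosome 4 and 62.7 on chromosome 8. Of its 3870 running numbers, 21.3% were present as sites (95% Wilson interval 20.03 to 22.6), again the lowest value. The interval included the values of chromosomes 21 (21.6%) and 8 (22.4%), but not that of the others pooled (24.4%). Together the steps gave 7.57 sites per 1000 cluster numbers, against 9.91 to 14.1 on the other autosomes and 11.4 on the others pooled. Tag clusters with at least 1 site numbered 5.82 per 1000 cluster numbers, against 7.43 to 10.02. Here and below, intervals cover counting error only, and neighbouring sites are not independent of each other. RNA levels were not measured here, so the part of RNA abundance and of gene length in these values was not tested.

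**Figure D1:**
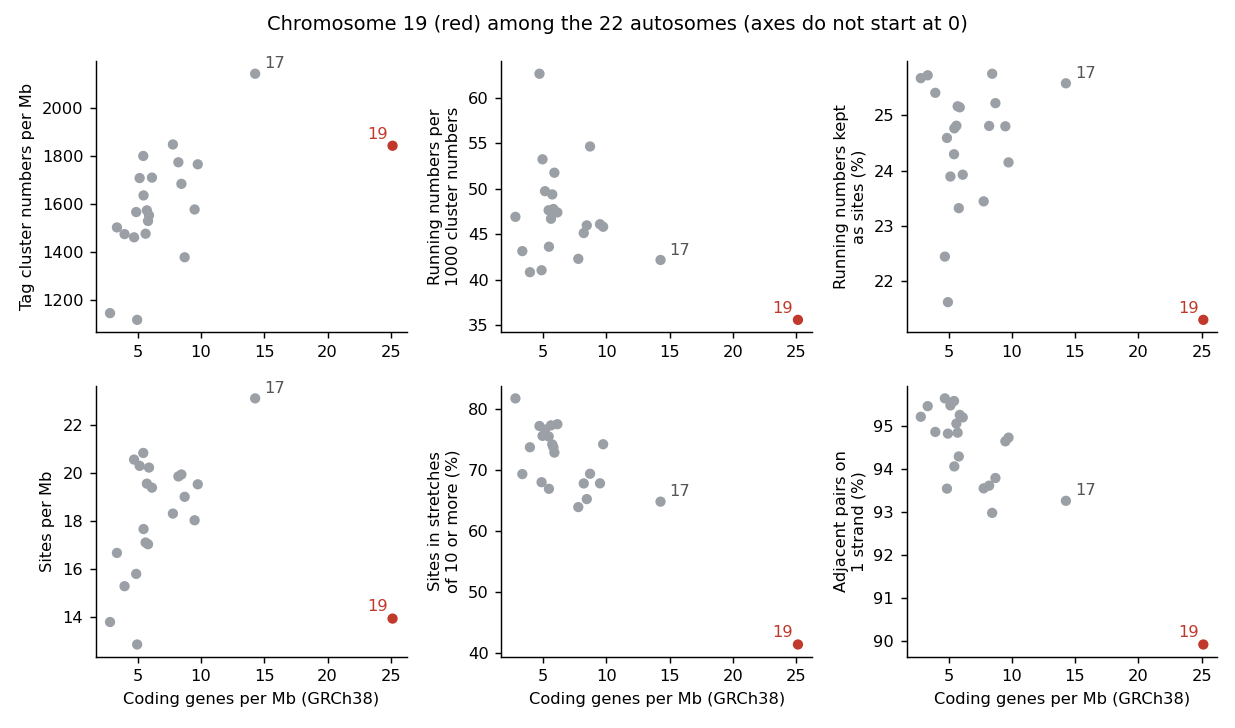
Each point is 1 autosome, placed by its protein-coding genes per Mb (horizontal axis, GRCh38 totals) and by a measure of the deposited sites (vertical axes, GRCh37), with chromosomes 19 and 17 labelled. Chromosome 19 lies at the right with 25.1 genes per Mb, high in tag cluster numbers per Mb (1843) and lowest in running numbers per 1000 cluster numbers (35.6), in sites in stretches (41.4%) and in adjacent pairs on 1 strand (89.9%).

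The 3 autosomes next in gene density had more sites per Mb and more running numbers per 1000 cluster numbers. Chromosome 17, with 14.3 genes per Mb, had 23.1 sites per Mb, the highest of all autosomes. Like chromosome 19 it had many cluster numbers per Mb (2142, the most of all). Its 42.2 running numbers per 1000 cluster numbers were also low, with lower values only on chromosomes 19, 4 (40.8) and 5 (41.0). Chromosome 11, with 9.74 genes per Mb, had 19.5 sites per Mb and 45.8 running numbers per 1000 cluster numbers. Chromosome 16, with 9.49 genes per Mb, had 18.04 sites per Mb and 46.1 running numbers per 1000 cluster numbers. High gene number was thus found with many sites per Mb on chromosome 17 and with few on chromosome 19.

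Along the chromosome the occupied bins held few sites, and their counts varied less for their mean than on the other autosomes. Positions are 1-based on GRCh37. The 52 bins of 1 Mb with a site held a mean of 15.8 sites, the lowest of all autosomes (22.6 to 32.2 on the others). The median of 15.5 was above that of chromosome 5 (15) and below the others. The SD of the counts over these bins was 0.721 times their mean, the lowest of the autosomes (0.747 on chromosome 20 to 1.13 on chromosome 8). There were 20 bins with 1 to 9 sites, 15 with 10 to 19, 13 with 20 to 29 and 4 with 30 or more. In 20 of the occupied bins all sites lay on 1 strand. The 17 bins with at least 20 sites held 59.2% of the sites.

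The fullest bin, from 16000001 to 17000000, held 58 sites in 37 tag clusters, and no other autosome had so low a maximum (77 to 162). Its sites were divided between the strands, with 27 on the plus and 31 on the minus strand, and their heights ran from 6 to 42 with a median of 11. Height is the authors' score of a site, read as its number of truncation events. The next bin in number, from 21000001 to 22000000, held 44 sites, 31 of them on the plus strand, with a median height of 16. The bin from 15000001 to 16000000 held 31 sites, none of them on the plus strand, and their median height was 15. The bin from 38000001 to 39000000 also held 31 sites, 26 on the plus strand, but they lay in 30 tag clusters and had a median height of 9. The fifth bin, from 39000001 to 40000000, held 29 sites with 26 on the plus strand. Bins with similar numbers of sites thus differed in strand, in height and in how far their sites shared tag clusters.

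**Figure D2:**
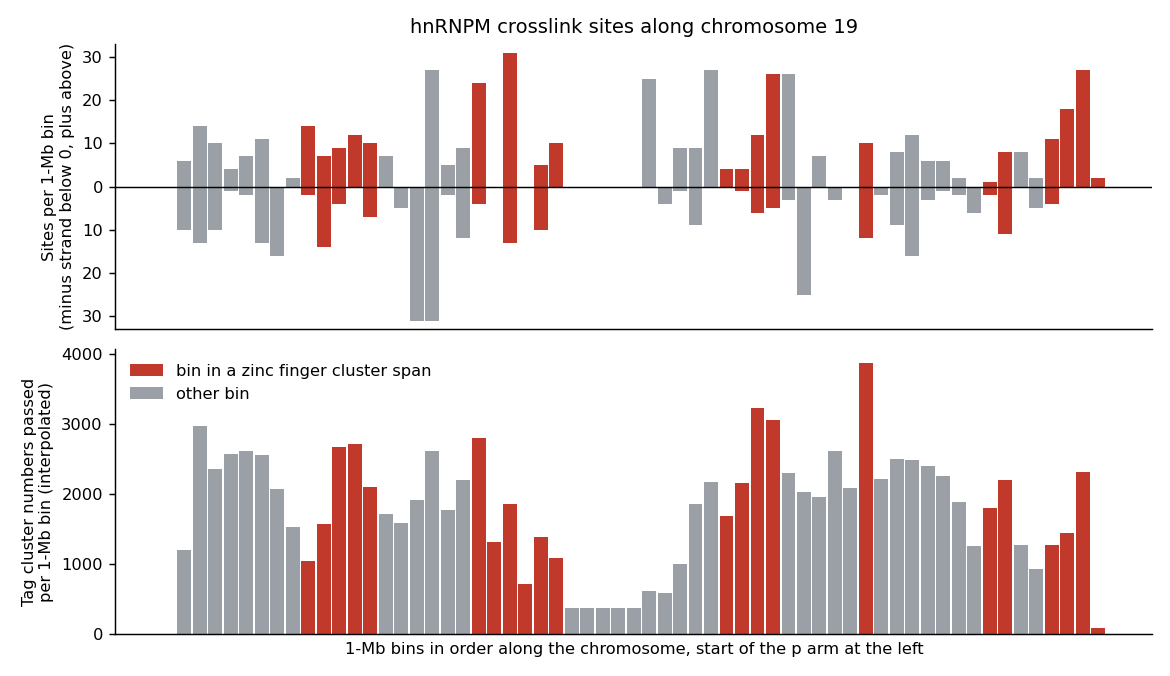
Sites per 1-Mb bin of chromosome 19 (upper bars, plus strand above 0 and minus strand below) and tag cluster numbers passed per bin, interpolated between sites (lower bars), in order from the start of the p arm. Red bins lie in zinc finger cluster spans; the run of 5 empty bins in the middle has low bars below, and the fullest bin holds 58 sites.

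The arms differed in density and strand. The p arm, taken as the 25 bins before the longest gap, held 424 sites (16.96 per bin). The 30 bins after this gap, taken as the q arm, held 400 (13.33 per bin). The 5 empty bins within the gap were counted in neither arm, because the bounds of the centromere were not used. Any of them that belong to the q arm would lower the 13.33. Tag cluster numbers as counted were nearly equal at 1960 and 1921 per bin, and the q arm had 6.94 sites per 1000 cluster numbers and the p arm 8.65. Minus-strand cluster numbers past the last minus-strand site of the q arm were not counted. This lowers the 1921 and raises the 6.94. The plus strand had 52.8% of the sites of the p arm and 67.5% of those of the q arm. Over the whole chromosome it had 494 sites (59.95%, interval 56.6 to 63.2), a share that was higher only on chromosome 14 (68.3%). Median heights were 11 on the p arm and 10 on the q arm. Single places weigh on these values: the p arm includes the fullest bin, with 58 sites. The q arm includes the part from 56 to 60 Mb, with 58 of 62 sites on the plus strand. The median bin held 16 sites on the p arm and 9.5 on the q arm. Differences between the arms were not tested.

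Zinc finger cluster spans were placed in whole 1-Mb bins from general knowledge of the chromosome, without a check against a GRCh37 annotation. They ran from 8 to 13, 19 to 25, 35 to 39, 44 to 45, 52 to 54 and 56 to 60 Mb, numbered here 1 to 6, and covered 22 bins, which also hold genes of other kinds. They held 340 sites, or 15.5 per bin. The other 33 bins, without the 5 empty bins around the centromere, held 484 sites, or 14.7 per bin. The ratio of 1.05 had an interval of 0.917 to 1.21, which includes 1. It was 1.07 and 1.05 with the spans of more than 2 bins widened or narrowed by 1 bin at each end. In 3 settings chosen after seeing the data the interval left out 1, in both directions. The ratio was 1.21 (1.06 to 1.39) with the centromeric empty bins counted and 1.16 (1.01 to 1.34) without the fullest bin. It was 0.861 (0.750 to 0.987) with every span widened. All these intervals treat each site as independent, but the variance of the counts over all bins was 10.4 times their mean. The intervals are therefore too narrow, and whether they include 1 cannot decide if the densities differ. The ratio itself lay on both sides of 1 over the settings, so the data gave no settled direction for the density of the spans. Tag cluster numbers as counted were also nearly equal, at 1929 and 1946 per bin. The value of the spans is lowered, because minus-strand numbers were counted only up to the last minus-strand site, which lies in span 6.

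The arrangement of the sites differed between the spans and the other bins, and from span to span. Single spans are small, with 22 to 97 sites, and the other bins were not split into parts of like size. Whether the spans differ among themselves more than other parts do was therefore not tested. A stretch is a run of same-strand sites that no opposite-strand site interrupts and in which each gap is 50 kb or less. In the spans 169 of 340 sites (49.7%, interval 44.4 to 55.0) lay in stretches of at least 10 sites, and outside them 172 of 484 did (35.5%, 31.4 to 39.9). The higher share came mostly from spans 2 and 6, grouped after their values were seen, with 108 of 159 sites in such stretches (67.9%). Spans 1, 3, 4 and 5 had 61 of 181 (33.7%), from 27.3% in span 5 to 45.5% in span 4. The plus strand held 72.1% of the sites in the spans (67.1 to 76.6) and 51.4% outside (47.0 to 55.9). It ranged from 40.9% in span 5 and 45.5% in span 4 to 93.5% in span 6. Strand was shared within stretches, so the sites behind these shares are far from independent, and no test was made. The spans had 15.5 sites in their median bin and the other bins 9, while the fullest bin lay outside the spans.

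Height and PH0 were alike inside and outside the spans. PH0 is a value in the authors' site names, 1 per tag cluster, read as the height expected from the level of the cluster. The median height was 11 in both, with quartiles of 8 and 17 in both. The median PH0 was 0.45 in the spans (interval 0.42 to 0.50) and 0.46 outside (0.42 to 0.50). Heights of at least 40 were reached by 11 sites in the spans (3.24%, 1.82 to 5.70) and by 22 outside (4.55%, 3.02 to 6.79). The median ratio of height to PH0 was 25 in the spans and 24.6 outside.

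The 6 spans were unlike each other. Span 2, next to the centromere on the p arm, held 97 sites in 4 of its 6 bins, with 44 in 1 bin. It had the highest median PH0 (0.64) and the most sites of height 40 or more (6). All but 1 of these 6 lay in a single tag cluster, from 21225890 to 21229964. Its 2 empty bins lay from 20000001 to 21000000 and from 22000001 to 23000000. Span 1 held 79 sites, between 12 and 21 in each of its 5 bins, with a median height of 12. Span 3 held 58 sites in 54 tag clusters, with a median height of 9 and 5.73 sites per 1000 cluster numbers. Span 4, a single bin, held 22 sites in 14 tag clusters. Span 5 held 22 sites with the lowest medians of height (8) and PH0 (0.305). Span 6, at the end of the q arm, held 62 sites, 58 of them on the plus strand. Its 12.1 sites per 1000 cluster numbers exceeded the other spans, but this value is raised by construction. Minus-strand cluster numbers were not counted past the last minus-strand site, which ends at 56624786, so most of span 6 lacks them. The last bin of span 6, with 2 sites, is cut short by the end of the chromosome.

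**Figure D3:**
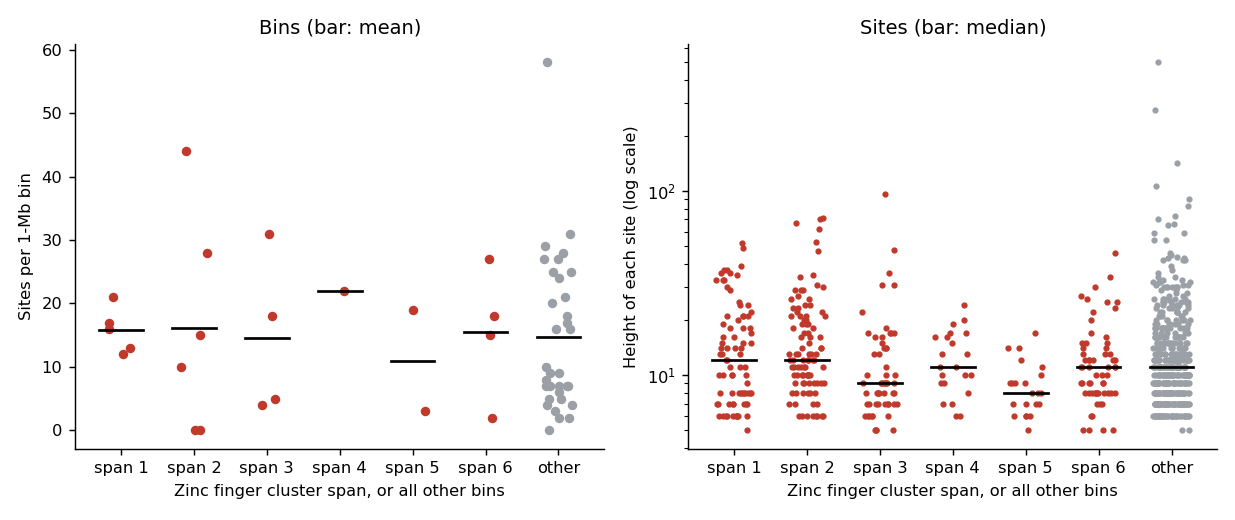
Sites per 1-Mb bin (left, 1 point per bin, black bar at the mean) and height of each site on a log scale (right, 1 point per site, black bar at the median) in the 6 zinc finger cluster spans and in the other bins of chromosome 19, without the 5 empty bins around the centromere. Bins range from 0 to 44 sites in the spans and from 0 to 58 outside, and the tallest sites, up to 500, lie outside the spans.

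Stretches were short on chromosome 19. There were 180, of which 52 held 1 site, 68 held 2 to 4, 37 held 5 to 9 and 23 held at least 10. The mean of 4.58 sites per stretch was the lowest of the autosomes (6.88 on chromosome 17, the next, to 11.2 on chromosome 8). Stretches of at least 10 sites held 341 sites (41.4%, interval 38.1 to 44.8), against 63.9% to 81.7% on the other autosomes. They had a median of 12 sites and a median span of 63.0 kb (quartiles 41.5 and 78.9), against 18 sites and 85.6 kb (54.4 and 133) in the 1565 stretches of the others. Only 2 of the 23 exceeded 100 kb (8.70%, 2.42 to 26.8), against 635 of 1565 (40.6%, 38.2 to 43.0). Within such stretches the sites were about as dense as elsewhere, with a median of 2.63 per 10 kb against 2.40. Chromosome 16, with a median span of 62.7 kb, had stretches as short but a larger share of its sites in them (67.8%).

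The largest stretch by number of sites, on the minus strand from 15390548 to 15537442, held 31 sites in 25 tag clusters over 147 kb. Its heights ran from 7 to 70 with a median of 15. No other autosome had so small a largest stretch (50 to 147 sites). The next, on the plus strand from 30437250 to 30491912, held 25 sites over 54.7 kb and was the only stretch between the centromere and 31 Mb. A plus-strand stretch from 19514760 to 19591237 held 23 sites in 76.5 kb, and a minus-strand stretch from 16652421 to 16736760 held 22 in 84.3 kb. The longest stretch, on the plus strand from 38400506 to 38562983, spread 21 sites over 162 kb, each in a tag cluster of its own, with a median height of 8. A plus-strand stretch from 39139807 to 39221115 also held 21 sites, in 81.3 kb. Density within the 23 stretches ranged from 1.11 to 10.7 sites per 10 kb. The densest, on the plus strand from 12047638 to 12057009, held 10 sites in 9.37 kb.

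Lone sites were more frequent than on any other autosome. On chromosome 19, 52 sites (6.31%, interval 4.84 to 8.18) lay more than 50 kb from the nearest same-strand site, against 1.78% to 4.65% on the others. The lower end of the interval, 4.84, lay just above the highest of these, 4.65% on chromosome 22. No neighbour within 1 kb was found for 51.1% of the sites (47.7 to 54.5), against 39.8% to 47.0%. Tag clusters mostly held 1 site: 504 of 633 did (79.6%), 92 held 2 and 13 held 4 or more.

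Gaps of 100 kb to under 1 Mb were more frequent on chromosome 19 than on any other autosome, and gaps of 60 nt to under 10 kb less frequent. The median gap was 2878 nt, the longest of the autosomes, although chromosome 17 came close with 2861 nt and chromosome 8 had the shortest at 1621 nt. Gaps of 26 to 59 nt made up 5.83%, within the range of the others (4.46% to 6.91%). Gaps of 60 nt to under 1 kb made up 24.5%, below all others (26.6% to 33.7%), and gaps of 1 to under 10 kb 35.5%, also below all others (36.01% to 40.8%). Gaps of 10 to under 100 kb made up 19.2%, within their range (15.1% to 19.9%). Gaps of 100 kb to under 1 Mb made up 13.9%, above all others (4.19% to 8.88%), and gaps of 1 Mb or more 1.09%, against 1.10% on the others pooled. In the 43 closest pairs of unequal height, 26 to 59 nt apart, the upstream site was the taller in 28 (65.1%, 50.2 to 77.6), against 65.9% on the others pooled.

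**Figure D4:**
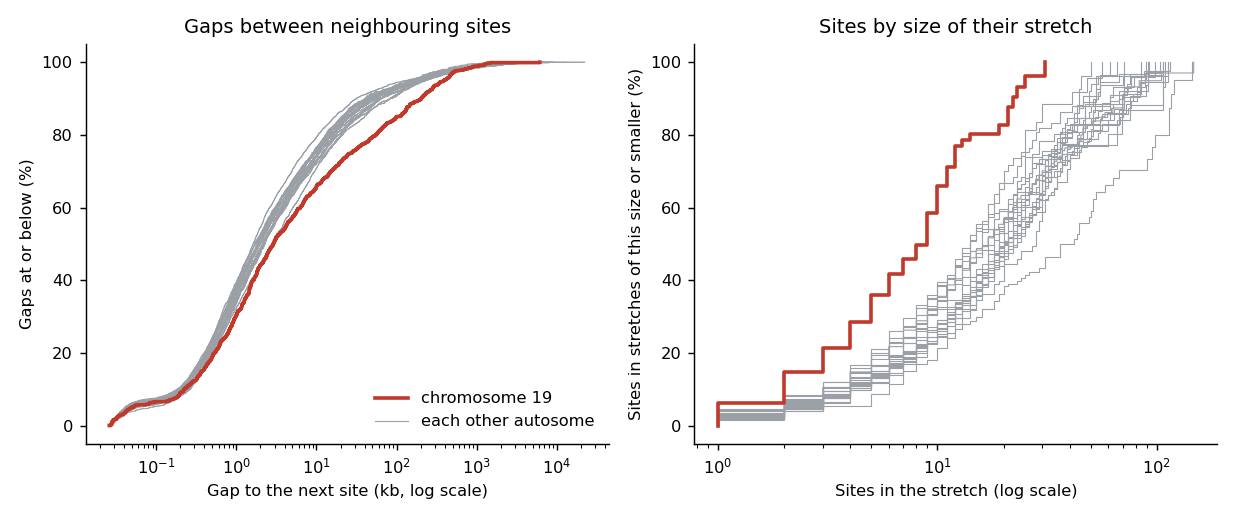
Left, cumulative share of gaps between neighbouring sites by their length (kb, log scale); right, cumulative share of sites by the number of sites in their stretch (log scale). The line of chromosome 19 (red) has a median gap of 2878 nt and ends at a stretch of 31 sites, while the lines of the other autosomes (grey) end at 50 to 147 sites.

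Strand changed often for the number of sites. There were 83 changes between neighbours, or 10.1 per 100 sites, against 4.36 to 7.02 on the other autosomes. By length of chromosome they were not the most frequent, with 83 over 59.1 Mb against 126 over 81.0 Mb on chromosome 17. The neighbours at a change were wide apart. The median gap at a change was 203 kb, more than on 19 of the other 21 autosomes, and the closest opposite-strand neighbours, at 2782397 on the minus and 2801371 on the plus strand, were 18974 nt apart. On the other autosomes the closest such pair was 1557 to 22421 nt apart. At divergent changes, from minus to plus, the median gap was 221 kb, and at convergent ones it was 189 kb, while on the others pooled the medians were 136 and 187 kb. There were 42 divergent and 41 convergent changes.

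The longest gap, of 6.14 Mb between plus-strand sites at 24300053 and 30437250, spanned the centromere. Tag cluster numbers rose by 1288 across it on the plus strand, or 210 per Mb. The next gaps in length flanked the same part or lay in span 2: 1.48 Mb from 21941710 to 23422085, 1.38 Mb from 19828811 to 21209417 and 1.29 Mb from 30491892 to 31786293. The fifth, of 1.27 Mb from 42755841 to 44029353, contained the only empty bin after the longest gap. These gaps were measured between the starts of neighbouring sites of either strand.

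Some long parts without plus-strand sites still held tag clusters of that strand, in unequal numbers per Mb. Between the plus-strand sites at 41773947 and 44342105, 2.57 Mb apart, the cluster number rose by 4610, or 1795 per Mb of this strand, but the running number rose by only 54. Between 44730383 and 46880709, also on the plus strand, the cluster number rose by 2837, or 1319 per Mb, and the running number by 20. On the same strand from 13232959 to 16188573 the rises were 1604, or 543 per Mb, and 7. Beside 1843 per Mb on both strands together over the chromosome, cluster numbers were many in the first and second parts but not in the third. The minus strand had 5, 21 and 40 sites in these parts, in the same order, and the last of them holds the largest stretch of the chromosome. On the reading above, plus-strand tags were present there and few plus-strand positions had been numbered as candidate sites.

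Heights on chromosome 19 were ordinary. The median was 11 (interval 10 to 11), as on 16 of the other autosomes and below the other 5, with quartiles of 8 and 17 as on the others pooled. Low heights were common, with 40.05% of sites at 5 to 9, a share that was higher only on chromosomes 16 and 17. Sites of height 40 or more numbered 33 (4.005%, 2.87 to 5.57), against 4.46% on the others pooled. The distribution ended in a few very tall sites: the 5 tallest held 8.66% of the summed height of 12926, more than on every other autosome but chromosome 11.

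The tallest site, on the plus strand from 34882879 to 34882899, had a height of 500, rank 11 in the whole list. Its PH0 was 8.29, the highest of the chromosome, and its height was 60.3 times PH0. There were 6 other sites of the strand within 50 kb, and from the first to the last in order their heights were 43, 44, 73, 18, 33 and 142. The last of these, from 34885373 to 34885393, was the third tallest of the chromosome and the 73, from 34878188 to 34878208, the eighth. This 1 locus thus gave 3 of the 10 tallest sites.

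Other tall sites stood apart from neighbours. The second tallest, on the plus strand from 54971454 to 54971474, had a height of 274, a PH0 of 4.30 and no same-strand neighbour within 50 kb. The site from 37191520 to 37191540, in span 3, had a height of 96 and also stood alone. Sites of height 107 and 90, from 7515893 to 7515913 and from 7515362 to 7515382, shared a tag cluster and were the only sites of their bin. The site from 54708862 to 54708882 had a height of 83 and 1 neighbour within 50 kb. By contrast, a site of height 70 on the minus strand, from 15411736 to 15411756, had 20 neighbours and lay in the stretch of 31 sites.

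Sites of height 71 and 70 (the latter tied with the minus-strand site) complete the 10 tallest and lay in span 2, in a tag cluster of 7 sites. No tag cluster of the chromosome held more. From 21225890 to 21229964 on the plus strand, its heights were 71, 70, 53, 47, 62, 23 and 19 in genome order, all with a PH0 of 2.31. The height was 30.7 times PH0 at the first site and 8.23 times at the last. The other cluster of 7 sites, on the minus strand from 40583580 to 40585531, was lower, with heights from 10 to 21 and a PH0 of 0.8.

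The median PH0 was low on chromosome 19, though not among its taller sites. The median was 0.46 (interval 0.43 to 0.49), equal to that of chromosome 17 and below the other 20 autosomes (up to 0.59), and 0.51 on the others pooled. With 1 value per tag cluster it was 0.40, below all 21 others (0.41 to 0.49), but its interval of 0.39 to 0.43 included the lowest of them. PH0 was under 0.5 at 54.6% of the sites, against 47.6% on the others pooled. The upper end did not differ in this way: the upper quartile of 0.79 exceeded that of 8 other autosomes. Among the 50% of sites with the greatest height, the median of 0.79 exceeded that of 12 other autosomes. The ratio of height to PH0 had a median of 24.7 (24.1 to 25.5), against 23.7 on the others pooled and 23.1 to 25 on single autosomes, and its 90th percentile of 41.7 was the highest of the 22. Among sites of height 40 or more the median PH0 was 2.02, against 1.66 on the others pooled, and the median ratio 32.1 against 33.9. These are only 33 sites, and those of height 71, 70, 62, 53 and 47 in 1 tag cluster share a PH0 of 2.31.

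**Figure D5:**
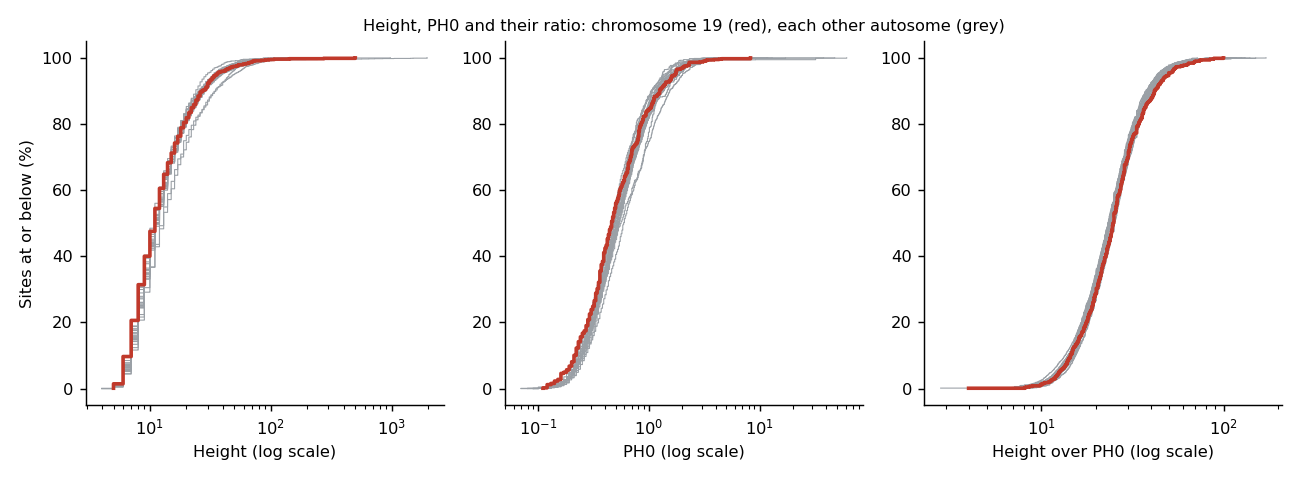
Cumulative share of sites by height, by PH0 and by their ratio (log scales) on chromosome 19 (red) and on each other autosome (grey). Chromosome 19 runs among the others in height (median 11), at their low edge in PH0 up to the median (0.46), and among them in the ratio (median 24.7, exceeded on 3 autosomes).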

How the data were processed

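The authors deposited a list of sites, each 21 nt wide, on GRCh37, a build taken from the submitters' processing notes. The height used here is the score that the authors deposited for each site, and it equals PH in the site's name. The names also gave a running number, a tag cluster number, PH0 and P, as deposited by the authors and not defined in the file. The aligner, the site caller, the treatment of duplicates and the pooling of libraries are not given in the sources used here, and depth is unknown.

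Computed here were bins of 1 Mb, gaps between starts of neighbouring sites, stretches, and medians with 95% binomial order intervals. Shares have Wilson intervals; the interval of the zinc finger ratio comes from the Wilson interval of the share of sites. Cluster numbers per bin were interpolated between sites of a strand, and none were counted before its first or after its last site. Coding genes came from GENCODE release 29 (GRCh38), as totals only. The planned measures on genes and sequence were not run. The text names the 5 fullest bins, 10 tallest sites, 5 stretches with most sites (a tie adds 1), 5 longest gaps and the empty bins; other sites, clusters, stretches and gaps were chosen after their values were seen. Chromosome 19, the spans and the measures were chosen with earlier results of these data known. The functions were tested on simulated data. Values were computed in Python 3.11.15 with scipy 1.17.1, pandas 2.3.3, matplotlib 3.10.9 and numpy 2.4.6.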

Additional observations from a re-analysis of the deposited data

How the results depend on the processing

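Of 32 alternatives, 20 gave a value within the 95% interval of the reported one; 12 of the 32 were chosen after seeing the data. Among the 50% of sites with the greatest height, chromosome 19 held 1.38% of the list, its occupied bins held 8.15 sites per Mb and its median PH0 was 0.79, above that of 12 other autosomes, so its low PH0 did not hold there; fewer and taller sites enter by construction. The density of occupied bins was 18.7 sites per Mb with bins of 500 kb and 14.7 with bins of 2 Mb, the lowest autosome in each. Stretches of at least 10 sites held 25.1% with gaps of at most 20 kb and 53.3% with 100 kb, and stretches of at least 5 sites held 71.4%, again the lowest autosome. The zinc finger ratio was 1.21 with the centromeric empty bins counted, 1.16 without the fullest bin and 0.861 with every span widened, with intervals that leave out 1; without 1 span each it ranged from 1.03 to 1.08. Median height was 9 for sites alone in their tag cluster, and median PH0 0.40 per tag cluster. In the taller 50% the median gap, 3305 nt, exceeded that of 19 other autosomes and not all 21. No paired analysis was possible because there was 1 group and the sites carry no library of origin, which also kept either replicate from being left out. Depth is unknown, so how many low sites were missed cannot be stated.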

Other observations

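The 5 highest ratios of height to PH0 on chromosome 19 were at sites of height 16 to 46, and the class of height 40 or more had the highest median ratio (32.1). The largest was not at the tallest site. The plus-strand site from 4911945 to 4911965 had a height of 24 and a PH0 of 0.24, a ratio of 100. It was followed by the plus-strand site from 58719141 to 58719161, with a height of 46, a PH0 of 0.52 and a ratio of 88.5. The tallest site had a ratio of 60.3. In the tag cluster of the tallest site a second site, from 34881433 to 34881453, had a height of 33 with the same PH0 of 8.29, a ratio of 3.98.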
